A study of Mus musculus with 4 samples.

Results

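The replication-dependent histone genes were examined in Langerhans cells, which sample antigen in the epidermis. Members were chosen by symbol, as every gene named Hist1h, Hist2h, Hist3h or Hist4h, which gave 69 of the 24441 symbols in the tables. RNA sequencing was done on Langerhans cells sorted from epidermal cell suspensions of 4-week-old mice. Wild-type animals (WT) were set against animals with a CD11c-Cre transgene and floxed Tfam alleles (Tfam cKO), with 2 libraries each, numbered 1 and 2. The labels do not say whether the WT mice carried the transgene or a floxed allele. In Tfam cKO the CD11c promoter drives Cre, so the recombinase is made in CD11c-expressing cells generally and not in Langerhans cells alone. Nor do the labels say which or how many mice gave a library, so a p-value covers the spread from library to library only, which may be technical. The list was chosen with results of these data known, and the 1 FPKM threshold for testing used the same values, so levels are described and not tested.

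Histones are the proteins that DNA is wound around. H2A, H2B, H3 and H4 form the core of the nucleosome, and H1 binds the linker DNA between nucleosomes. Replication-dependent histone genes are clustered, mostly lack introns and are transcribed chiefly in S phase, and their mRNAs end in a conserved stem-loop in place of a poly(A) tail. The stem-loop is bound by SLBP and the end is cut with the help of the U7 small nuclear ribonucleoprotein. Some of these genes also give polyadenylated mRNA in cells that have stopped dividing. Langerhans cells renew themselves within the epidermis by slow local division.

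The set held 6 H1, 19 H2A, 19 H2B, 12 H3 and 13 H4 genes. By symbol, 55 of them belonged to the Hist1 cluster, 10 to Hist2, 3 to Hist3 and 1 to Hist4. In the deposited positions Hist1h2al starts at 51295452 on chromosome 13, apart from the other Hist1 genes. Those lie between 21807581 and 24026782. All 69 symbols were found in the GENCODE M21 annotation of GRCm38, where 67 were protein coding. The other two, Hist1h2al and Hist3h2bb-ps, were pseudogenes, so the label does not hold for every member. Hist1h1t, Hist1h2aa and Hist1h2ba are known as testis genes.

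The stem-loop was searched for in a single GENCODE M21 transcript per symbol, as the metazoan histone stem-loop of 16 bases with 6 stem pairs and a 4-base loop. Transcripts tagged as principal were preferred, and then the longest was taken, so other transcripts of a gene were not searched. The stem-loop was found in 46 members, starting 21 to 58 bases after the stop codon. The stem-loops are shown because they are the feature that sets this mRNA class apart and because they differed between classes. Capitals mark the loop, and the name is that of a member carrying the sequence.
Hist1h1c: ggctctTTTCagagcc
Hist1h3e: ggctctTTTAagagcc
Hist1h3g: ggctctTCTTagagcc
Hist2h2ac: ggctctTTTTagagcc
Hist1h4m: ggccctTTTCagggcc
Hist1h4i: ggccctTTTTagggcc
Hist1h4b: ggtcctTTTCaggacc
Hist1h4a: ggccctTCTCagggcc

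Of these 8 sequences, 4 were carried by 12 H4 genes only and 4 by 34 genes of the other classes only. The sequence shown for Hist1h1c was shared by 26 members, among them Hist1h2bg, Hist2h2aa1 and Hist3h2a. The sequence shown for Hist1h3e was shared by 6 members and that for Hist1h4m by 7. Hist1h4i shared its sequence with Hist2h4, and Hist1h4b with Hist1h4j. No match was found in 21 coding members, and 17 of these had fewer than 20 bases annotated after the stop codon. The absence of a match says only that these letters were not in the annotated transcript.

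The promoters of 61 members were in the RefSeq table for GRCm38.p6, in windows from 250 bases before to 50 bases after the start. Both strands were searched for the octamer ATTTGCAT, the site of OCT factors known from H2B promoters, for CCAAT and for the TATA box as TATAAA. The octamer was found in 14 of the 61 windows, against 1.74% of all 32851 windows. It was in 7 of 17 H2A and 7 of 16 H2B windows and in 0 H1, H3 or H4 windows. CCAAT was in 52 of the 61, against 37.4% of all windows, and in 3 of 12 H4 windows. TATAAA was in 35 of the 61, against 13.6% of all windows. A match describes letters and is neither a site nor a cause of a level. Hist1h2bg and Hist3h2a are shown because both had a far higher level than the partner gene that starts within the same window, with the matches on either strand in capitals. The first window is at chr13:23571150-23571449 and the second at chr11:58954435-58954734, both on the plus strand.
Hist1h2bg: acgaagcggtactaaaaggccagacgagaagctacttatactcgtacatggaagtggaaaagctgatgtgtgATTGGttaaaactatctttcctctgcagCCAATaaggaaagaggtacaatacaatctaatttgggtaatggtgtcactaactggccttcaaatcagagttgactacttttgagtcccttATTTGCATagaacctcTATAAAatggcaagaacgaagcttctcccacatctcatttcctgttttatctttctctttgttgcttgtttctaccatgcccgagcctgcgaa
Hist3h2a: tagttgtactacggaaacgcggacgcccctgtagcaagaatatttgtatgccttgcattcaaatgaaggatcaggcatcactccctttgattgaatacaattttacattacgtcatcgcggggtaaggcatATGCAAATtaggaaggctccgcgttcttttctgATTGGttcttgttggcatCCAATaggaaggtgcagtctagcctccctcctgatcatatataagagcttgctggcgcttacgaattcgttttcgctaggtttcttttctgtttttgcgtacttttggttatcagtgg

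The Hist1h2bg window held the octamer, CCAAT on both strands and TATAAA. In the Hist3h2a window the octamer and CCAAT were present and TATAAA was not. Windows of divergent neighbours overlap, so an H2A and an H2B gene can share a match.

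Levels are given as FPKM, fragment numbers divided by transcript length and by the library's mapped fragments, which allows comparison between genes of different length. Summed over all symbols, FPKM was 369761 in WT 1 and 338783 in WT 2, against 395707 in Tfam cKO 1 and 375823 in Tfam cKO 2. Lists of 4 values follow this order of libraries throughout. Read totals are not recorded, but the width of the Cufflinks interval gives an effective number of fragments behind a value. Of the 43 members tested, 34 had fewer than 20 such fragments in their lowest library. Tfam itself was at 3.17, 1.61, 1.65 and 1.53 FPKM, so WT 2 matched Tfam cKO and the targeted gene did not separate the labels. Ddx3y, on the Y chromosome, was at 0 in both libraries numbered 1, at 28.2 FPKM in WT 2 and at 9.34 in Tfam cKO 2, so the presence of Y-linked RNA followed the library number in both groups. Markers of Langerhans cells were present, with Cd207 between 1374 and 2098 FPKM. All 7 keratinocyte markers were detected as well, and their summed level was 12133, 8008, 11601 and 10439 FPKM in the same order. The 6 T cell markers measured summed to 213, 239, 150 and 213 FPKM, while melanocyte, fibroblast and neutrophil markers each summed to between 0 and 5.40. The part of these other cells in the histone values was not tested. In such bulk samples fewer cells of a type and less RNA per cell cannot be told apart.

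Measured FPKM was unevenly spread over the family, with most of it from a few genes. As the labels do not say whether poly(A) selection was used, the recovery of mRNA without a poly(A) tail is not known. The 69 members summed to 405 (WT 1) and 446 (WT 2) against 480 (Tfam cKO 1) and 621 FPKM (Tfam cKO 2). That was 0.109%, 0.132%, 0.121% and 0.165% of all FPKM. The 6 highest genes held between 74.2% and 78.7% of the sum in each library, and Hist1h2bc alone held 30.4% of it over the 4 libraries. These were the 6 members with a mean of at least 10 FPKM. A further 6 lay between 5 and 10 FPKM, 31 between 1 and 5, and the remaining 26 below 1 FPKM. Members listed at 0 numbered 11, 8, 8 and 4 in the 4 libraries, and Hist1h2aa, a testis H2A gene, was the only member at 0 in all. At the 1 FPKM threshold, Hist1h2bn had a mean of 1.02 FPKM and was tested, while Hist1h3b had a mean of 0.988 FPKM and was not. Hist1h2bn, an H2B gene, was at 0.847, 1.12, 1.50 and 0.599 FPKM. Hist1h3b, an H3 gene, was at 0.181, 2.70, 0.412 and 0.653 FPKM, highest in WT 2.

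**Figure D1:**
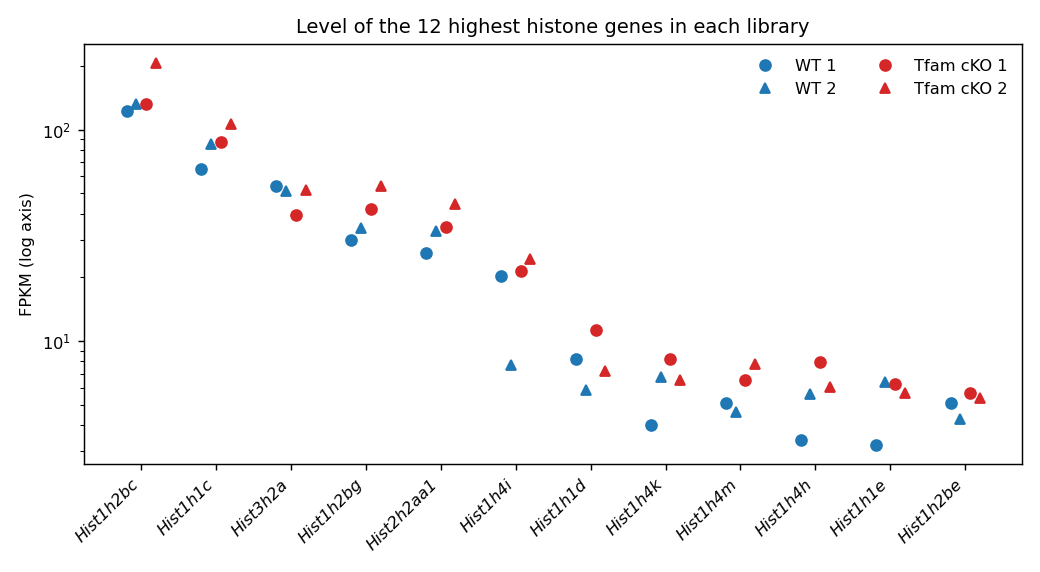
FPKM (log axis) of the 12 histone genes with the highest mean level, with 1 point per library (blue, WT; red, Tfam cKO; circles, library 1; triangles, library 2). Hist1h2bc lies between 123 and 206 FPKM, and 6 of the 12 genes have a mean of at least 10 FPKM.

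Between the genotypes, none of the tested histone genes passed the test. Most of those tested were somewhat higher in Tfam cKO, but the threshold for testing bears on that count, as given below. Of the 43 tested members, 34 had a positive log2 fold change of FPKM + 1, against 65.2% of all 10910 genes tested, and the median was 0.37 against 0.07 over all genes. In limma, 0 members were higher and 0 lower at an adjusted p below 0.05, against 0.0183% and 0% of all genes. At an unadjusted p below 0.05, limma gave 14 members higher and 0 lower, against 5.01% and 1.19% of all genes. In 17 members, 39.5% of those tested, both Tfam cKO libraries lay above both WT libraries, against 25.4% of all genes, while 0 members lay below in both, against 9.75% of all genes. The other 26 overlapped. The 1 FPKM threshold admitted members through the group where they were high. Of the 17, 7 had a WT mean below 1 FPKM and were tested only because Tfam cKO was higher, and of the 43 tested members 11 had a WT mean and 1 a Tfam cKO mean below 1 FPKM. Counts and medians over the tested members therefore support no direction. Among the 12 highest genes 7 did not overlap, and among the other 31 tested 10 did not. After every library was rescaled to the same total, 12 members lay above and 1 below, against 14.3% and 19.8% of all genes, and the median over all genes moved from 0.07 to -0.04. Without WT 1, 3 members were called higher and 0 lower, against 26 and 6 of all genes tested. Without WT 2, 0 members were called, against 23 higher and 3 lower of all genes. Without Tfam cKO 1, 5 members were called higher and 1 lower, against 63 and 20 of all genes, and without Tfam cKO 2, 1 higher and 1 lower, against 40 and 38.

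**Figure D2:**
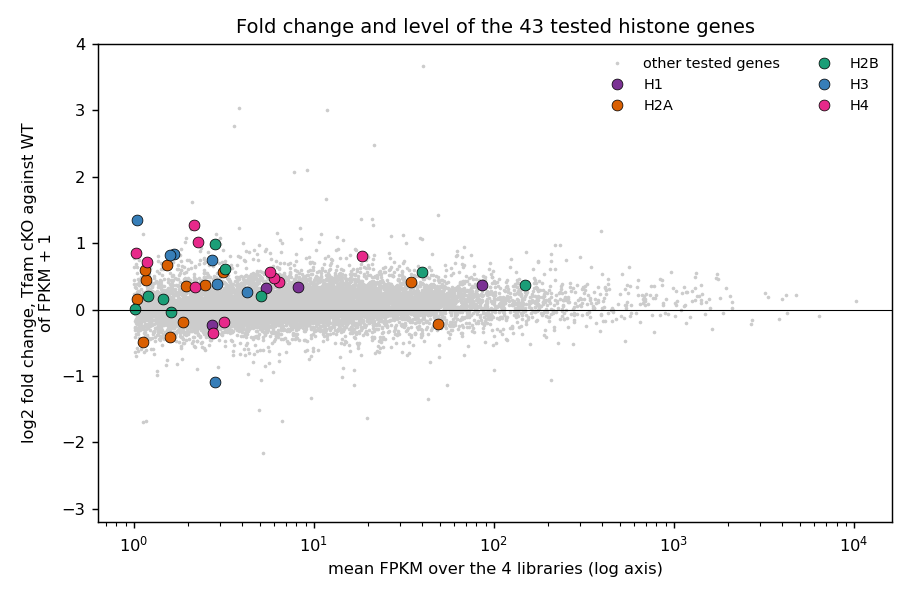
Log2 fold change of FPKM + 1 (Tfam cKO against WT) against mean FPKM (log axis) for the 43 tested histone genes, coloured by class, over the other tested genes in grey. Of the histone genes 34 lie above 0, and the spread is wider among those below 5 FPKM, from -1.08 to 1.35.

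The libraries of a group also differed from each other. Among the 43 tested members, the highest of the 4 values was in Tfam cKO 2 for 22 and in Tfam cKO 1 for 13. The lowest was in WT 1 for 18 and in WT 2 for 15. The share over all genes was not taken. Of the 43 members, 11 had a WT mean and 1 a Tfam cKO mean below 1 FPKM, so these counts support no direction. Library 2 exceeded library 1 by a median of 0.18 on the log2 scale within WT and of 0.24 within Tfam cKO, against -0.10 and -0.01 over all genes. Compared within the libraries numbered 1, Tfam cKO was higher by a median of 0.33, against 0.02 over all genes. Within those numbered 2 it was higher by a median of 0.39, against 0.13 over all genes. Both medians are over the same 43 members, and the labels do not say that a number pairs libraries, so they support no direction.

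The classes were compared by their sums, which carry no test. The 13 H4 genes summed to 49.6 (WT 1) and 32.9 (WT 2) against 62.5 (Tfam cKO 1) and 66.7 FPKM (Tfam cKO 2), a ratio of means of 1.57. The H1 genes summed to 79.5, 102, 108 and 122 FPKM, with a ratio of 1.26. The H2B genes summed to 168, 186, 197 and 286 FPKM, with a ratio of 1.37. In these 3 classes both Tfam cKO libraries lay above both WT libraries. The H3 genes summed to 11.9, 22.6, 22.3 and 24.6 FPKM, where WT 1 was low and WT 2 lay among the Tfam cKO libraries. The H2A genes summed to 95.9, 102, 91.1 and 121 FPKM, so that Tfam cKO 1 was the lowest and Tfam cKO 2 the highest. Rescaled to a total of 1000000 per library, H4 was at 134, 97.1, 158 and 178, and it was the only class whose groups still did not overlap. Single libraries decided the size of these ratios and their order. The H4 log2 ratio was 0.65, with 0.97 without WT 1 and 0.38 without WT 2. The H3 log2 ratio was 0.44, with 0.054 without WT 1 and 0.98 without WT 2. For H1 it was 0.34, with 0.17 without WT 1 and 0.53 without WT 2. For H2B it was 0.45, with 0.69 without Tfam cKO 1 and 0.15 without Tfam cKO 2. For H2A it was 0.10, with 0.29 without Tfam cKO 1 and -0.12 without Tfam cKO 2. With all libraries the H4 ratio was the largest, but it was below those of H3, H1 and H2B without WT 2 and was level with H2B without Tfam cKO 1.

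**Figure D3:**
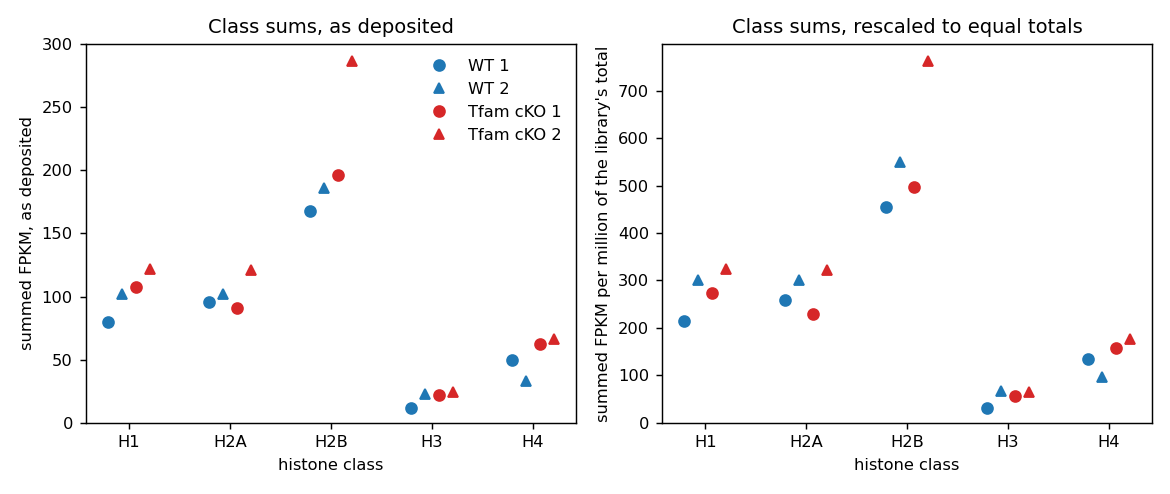
Summed FPKM of each histone class in each library, as deposited (left) and rescaled to a total of 1000000 (right), with colours and symbols for genotype and library as in the plot of the highest genes. H2B has the highest sum and H3 the lowest in every library, and on the right only H4 has both Tfam cKO points above both WT points.

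By cluster, the 55 Hist1 genes summed to 319, 351, 389 and 508 FPKM, and the 10 Hist2 genes to 30.3, 40.2, 44.9 and 56.7 FPKM. In both clusters the Tfam cKO libraries lay above the WT libraries, but rescaled to equal totals the groups overlapped, at 862, 1035, 984 and 1351 for Hist1 and 81.9, 119, 114 and 151 for Hist2. The 3 Hist3 genes summed to 55.0, 55.2, 44.3 and 56.0 FPKM, with Tfam cKO 1 apart from the other libraries. Hist3h2a held 93.3% of that sum. Hist4h4, the only Hist4 gene, was at 0.810, 0, 1.85 and 0.845 FPKM, below the mean needed for the test.

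Of the H1 linker histone genes, 4 of 6 were tested, and in 1 the groups did not overlap, with Tfam cKO higher (25.4% over all genes tested). Hist1h1c was at 65.3 (WT 1) and 85.1 (WT 2) against 87.0 (Tfam cKO 1) and 106 FPKM (Tfam cKO 2). The top WT value was close to the lower Tfam cKO value, and the group means of 75.2 ± 14.0 and 96.7 ± 13.7 FPKM (SD, n = 2 each) gave a change of 0.36 ± 0.21 on the log2 scale (SE, limma adjusted p = 0.870), and of 0.18 to 0.55 with each library left out. Hist1h1c is on chromosome 13, from 23830675 to 23831400. This and the positions below are as the files give them, with the build unresolved. Hist1h1d, a further linker histone gene, was at 8.19, 5.85, 11.2 and 7.19 FPKM in the same order of libraries. Its groups overlapped, since Tfam cKO 2 lay below WT 1 (log2 fold change 0.33, limma adjusted p = 0.897). The log2 fold change was 0.12 without WT 2 and 0.045 without Tfam cKO 1, and 0.55 and 0.62 without the other libraries. Hist1h1e was at 3.21, 6.39, 6.25 and 5.68 FPKM. Here WT 1 alone was low, and the log2 fold change was 0.32 with all libraries and -0.09 without WT 1.

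Of the H2A genes, 12 of 19 were tested. In 4, both Tfam cKO libraries lay above both WT libraries (25.4% over all genes tested), namely Hist2h2aa1, Hist1h2ao, Hist1h2ad and Hist2h2ac. Hist1h2ad and Hist2h2ac had WT means of 0.952 and 0.706 FPKM and were tested only because Tfam cKO was higher. Hist3h2a was the highest H2A gene, at 53.9 (WT 1) and 51.2 (WT 2) against 39.4 (Tfam cKO 1) and 51.8 FPKM (Tfam cKO 2). Only Tfam cKO 1 stood apart, and the groups overlapped (52.6 ± 1.90 and 45.6 ± 8.77 FPKM, SD, n = 2 each, change -0.22 ± 0.19 (SE) on the log2 scale, limma adjusted p = 0.924). Its change was -0.02 without Tfam cKO 1 and -0.41 without Tfam cKO 2. The gene is on chromosome 11, 58768186 to 58768694. Hist2h2aa1, listed at 2 loci on chromosome 3 from 96043701 to 96044257 and from 96049419 to 96049975, was at 26.0, 32.9, 34.7 and 44.2 FPKM. Its groups did not overlap, at 29.5 ± 4.93 and 39.5 ± 6.68 FPKM (SD, n = 2 each, change 0.41 on the log2 scale, limma adjusted p = 0.846), and the change was 0.24 to 0.58 with each library left out. Without Hist3h2a, the log2 ratio of the H2A sum was 0.39, against 0.10 with it.

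Of the H2B genes, 9 of 19 were tested, and in 3 the groups did not overlap, with Tfam cKO higher (25.4% over all genes tested). Hist1h2bc, the member of highest level, was at 123 (WT 1) and 132 (WT 2) against 132 (Tfam cKO 1) and 206 FPKM (Tfam cKO 2). Tfam cKO 2 alone was high, while Tfam cKO 1 lay within the WT range (128 ± 6.56 and 169 ± 52.6 FPKM, SD, n = 2 each, change 0.37 ± 0.24 (SE) on the log2 scale, limma adjusted p = 0.892). Its log2 fold change was 0.69 without Tfam cKO 1 and 0.048 without Tfam cKO 2. The gene is on chromosome 13, 23776067 to 23784349, and GENCODE gives it 2 exons. Hist1h2bg, on chromosome 13, 23663268 to 23663732, was at 29.9, 34.1, 42.1 and 54.3 FPKM. Both Tfam cKO libraries lay above both WT libraries (32.0 ± 2.91 and 48.2 ± 8.66 FPKM, SD, n = 2 each, change 0.57 ± 0.19 (SE) on the log2 scale, limma adjusted p = 0.662). Hist1h2be was at 5.07, 4.26, 5.67 and 5.39 FPKM, with groups that did not overlap but lay close together (log2 fold change 0.21, and 0.11 without WT 2, limma adjusted p = 0.914). Hist1h2br, at a low level, was at 2.27, 0.874, 3.001 and 5.07 FPKM. WT 2 was lowest and Tfam cKO 2 highest (log2 fold change 0.99 ± 0.30 SE, limma adjusted p = 0.624). The log2 fold change was 1.40 without WT 1 (limma adjusted p = 0.0614), 0.59 without WT 2 (0.546), 1.29 without Tfam cKO 1 (0.00426) and 0.69 without Tfam cKO 2 (0.696), and 0.64 with only the higher of its 2 loci (0.750).

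Of the H3 genes, 7 of 12 were tested, and in 3 both Tfam cKO libraries lay above both WT libraries, namely Hist1h3g, Hist2h3b and Hist2h3c2 (25.4% over all genes tested). All 3 had a WT mean below 1 FPKM. The class was low throughout, and its highest member, Hist1h3a, had a mean of 4.24 FPKM. Hist1h3g is named for its fold change, and it was tested only because its Tfam cKO values lifted the mean to 1.05 FPKM, with a WT mean of 0.157 FPKM. It was at 0.313 (WT 1) and 0 (WT 2) against 1.60 (Tfam cKO 1) and 2.27 FPKM (Tfam cKO 2), from 1, 0, 3.15 and 10.3 effective fragments. The groups did not overlap (log2 fold change 1.35 ± 0.25 SE, limma adjusted p = 0.261), but the WT values rest on about 1 fragment.

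Of the H4 genes, 11 of 13 were tested, and in 6 both Tfam cKO libraries lay above both WT libraries (25.4% over all genes tested). Among these, Hist1h4d and Hist1h4j had WT means of 0.994 and 0.493 FPKM and were tested only because Tfam cKO was higher. Hist1h4i, the highest H4 gene, was at 20.3 (WT 1) and 7.68 (WT 2) against 21.4 (Tfam cKO 1) and 24.4 FPKM (Tfam cKO 2). These values came from 38.7, 22.8, 36.0 and 66.1 effective fragments. WT 2 alone was low and WT 1 was close to Tfam cKO 1 (14.0 ± 8.93 and 22.9 ± 2.07 FPKM, SD, n = 2 each, change 0.81 ± 0.36 (SE) on the log2 scale, limma adjusted p = 0.811). Without WT 1 the adjusted p was 0.00797 with a log2 fold change of 1.46, and without WT 2 it was 0.909 with a log2 fold change of 0.16. Without Tfam cKO 1 or 2 the adjusted p was 0.176 and 0.496. Hist1h4i is on chromosome 13, 22132828 to 22133231. Hist1h4m was at 5.09, 4.62, 6.55 and 7.77 FPKM, with groups that did not overlap (log2 fold change 0.48, limma adjusted p = 0.679). Hist1h4h was at 3.40, 5.58, 7.90 and 6.06 FPKM, also without overlap (log2 fold change 0.56, from 0.27 without WT 1 to 0.85 without WT 2, limma adjusted p = 0.783). Hist1h4k was at 3.99, 6.76, 8.17 and 6.52 FPKM, where WT 2 lay above Tfam cKO 2 and the groups overlapped (log2 fold change 0.42, from 0.097 without WT 1 to 0.73 without WT 2, limma adjusted p = 0.869).

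A lower WT 2 value recurred in the H4 genes of largest change. Hist1h4d was at 1.99, 0, 2.28 and 4.36 FPKM, from 3, 0, 3 and 9 effective fragments. WT 1 and Tfam cKO 1 were close (log2 fold change 1.28, limma adjusted p = 0.716). With a library left out, the log2 fold change was 2.07 without WT 1 (limma adjusted p = 0.0325), 0.49 without WT 2 (0.710), 1.63 without Tfam cKO 1 (9.4e-05) and 0.92 without Tfam cKO 2 (0.304). Hist1h4b was at 2.38, 0.259, 2.49 and 3.96 FPKM, again with WT 1 close to Tfam cKO 1 (log2 fold change 1.01, limma adjusted p = 0.786). Here the log2 fold change was 1.73 without WT 1 (limma adjusted p = 0.0371), 0.30 without WT 2 (0.856), 1.27 without Tfam cKO 1 (0.00918) and 0.76 without Tfam cKO 2 (0.586). WT 2 also had the lowest summed levels of keratinocyte markers, given above, and of S phase genes. The part of either in the H4 values was not tested.

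Several members have copies so alike that their reads can be divided between them in more than 1 way. Of 59 coding members with a partner of the same coding length, 49 shared at least 95% of the coding bases with another member and 10 were identical to another. In the files, 5 pairs had overlapping gene models. Summed over Hist2h2aa1 and Hist2h2aa2, the level was 26.0, 34.3, 34.7 and 47.5 FPKM, and over Hist1h2bq and Hist1h2br it was 2.74, 1.24, 4.16 and 6.41 FPKM. The sums of these pairs, of Hist2h3c1 with Hist2h3c2 and of Hist1h2ao with Hist1h2ap were without overlap and higher in Tfam cKO. The sum of Hist1h4m and Hist1h4n was 7.94, 8.50, 8.48 and 11.7 FPKM, where the groups overlapped, although those of Hist1h4m alone did not. Differences between single members of such pairs are therefore uncertain.

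The members were also described by their annotated 3′ end. Of the GENCODE transcripts searched above, a single one per symbol, 23 ran more than 100 bases past the stem-loop and 23 ended nearer. In 21 coding members there was no match. The extended group held 4 of the 6 highest genes, Hist1h1c, Hist3h2a, Hist1h2bg and Hist1h4i, and 49.0% of the family's summed level. Its median level was 2.19 FPKM, against 1.15 FPKM for members ending near the stem-loop and 1.02 FPKM for those without a match. AATAAA or ATTAAA, the signals of polyadenylation, stood in the last 50 bases of 12 of the 23 extended transcripts, of 1 of the 23 ending near the stem-loop and of 1 of the 21 without a match. Hist2h2aa1 was the only gene over 10 FPKM that ended near the stem-loop. Hist1h2bc was the only such gene without a match, in a GENCODE transcript of 1156 bases. In 21 of the 23 extended members, the gene model in the files was more than 100 bases shorter than that of GENCODE, so FPKM in the files refers to the shorter model. Between the genotypes, the groups did not overlap in 7 of 19 tested extended members and 8 of 13 ending near the stem-loop. The same held for 2 of 11 without a match, and all were higher in Tfam cKO (25.4% over all genes tested). The counts include members with a WT mean below 1 FPKM, tested only because Tfam cKO was higher. They were Hist1h4d, Hist1h4j and Hist2h3c2 (extended), Hist1h2ad, Hist1h3g and Hist2h2ac (ending nearer), and Hist2h3b (no match). The counts therefore support no direction. These groups of ends were formed with the levels known and carry no test.

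**Figure D4:**
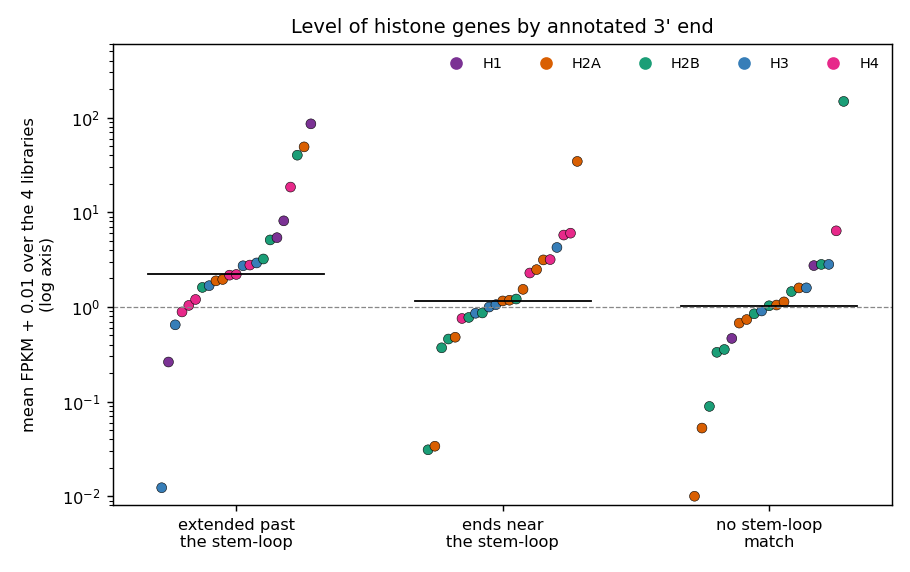
Mean FPKM + 0.01 over the 4 libraries (log axis) of the 67 coding histone genes by their annotated 3′ end, with 1 point per gene coloured by class, black bars at the medians and a dashed line at 1 FPKM. The medians are 2.19, 1.15 and 1.02 FPKM from left to right, and 4 of the 6 genes over 10 FPKM are in the extended group.

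Some divergent neighbours differed widely in level. With starts at most 500 bases apart on opposite strands, 13 pairs were found in GENCODE, each of an H2A and an H2B gene, with starts 173 to 306 bases apart. Hist1h2bc had a mean of 148 FPKM and its neighbour Hist1h2ac 1.88 FPKM, a ratio of 79.1. Hist1h2bg, whose window is printed above, was at 40.1 FPKM and Hist1h2ae at 1.94 FPKM, a ratio of 20.7. In Hist3 it was the H2A gene that was high, with Hist3h2a at 49.1 FPKM and the pseudogene Hist3h2bb-ps at 0.324 FPKM, a ratio of 152. A ratio of 118 for Hist1h2br over Hist1h2ap includes the split of reads between Hist1h2ap and Hist1h2ao. In 8 pairs the ratio was between 1.10 and 4.57, and the testis pair of Hist1h2aa and Hist1h2ba was at 0 and 0.0789 FPKM. Hist1h2ac was at 1.68, 2.31, 2.64 and 0.875 FPKM, lowest in Tfam cKO 2, the library where Hist1h2bc was highest.

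**Figure D5:**
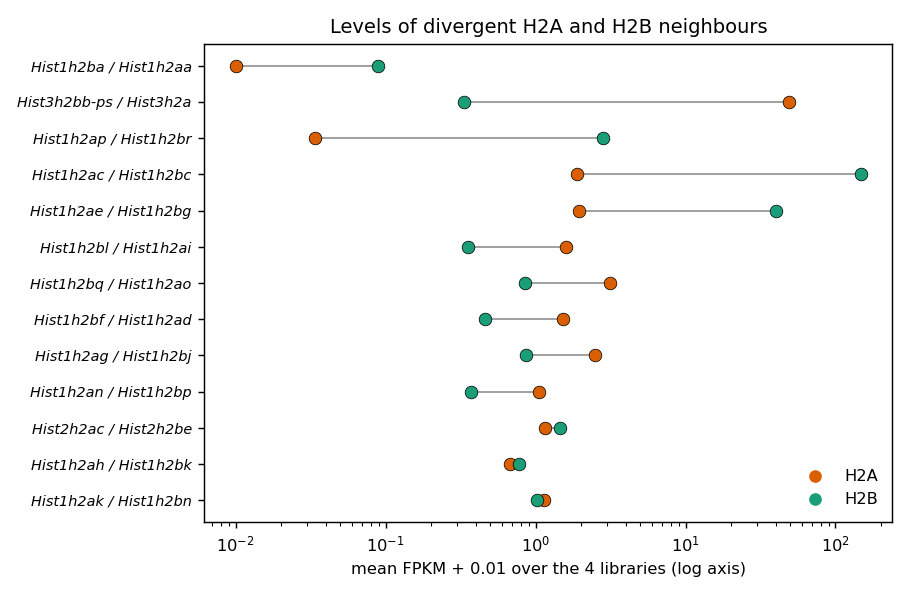
Mean FPKM + 0.01 over the 4 libraries (log axis) of the H2A and H2B genes of each of the 13 divergent pairs, joined by a line. The pairs of Hist1h2bc, Hist1h2bg, Hist3h2a and Hist1h2br are far apart, and the ratio is at most 4.57 in 8 others.

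The replication-independent variants, which are expressed outside S phase, summed to 1984, 1777, 1849 and 1961 FPKM over the 18 measured, above the sum of the family. The unknown recovery of mRNA without a poly(A) tail also limits this comparison. The variant sum was carried by a few genes, and 6 of the 18 were listed at 0 in every library. Of 11 tested, 0 were called by limma, against 0.0183% higher and 0% lower over all genes tested. At an unadjusted p below 0.05 limma also gave 0, against 5.01% higher and 1.19% lower. Without overlap, 2 were higher and 0 lower, against 25.4% and 9.75%. These shares over all genes apply to the lists that follow too. The median log2 fold change of the variants was 0.06. H3f3b, which encodes the variant H3.3 as H3f3a does, was at 875, 828, 848 and 937 FPKM. H3f3a was at 634, 544, 527 and 574 FPKM, and H2afz, which encodes H2A.Z, at 237, 188, 232 and 210 FPKM, all with overlapping groups. H2afx, the variant marked at DNA breaks, was at 14.5, 14.6, 16.6 and 21.8 FPKM, below the 5 highest replication-dependent genes in every library and with Tfam cKO above WT (log2 fold change 0.37, limma adjusted p = 0.846).

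The machinery that makes and handles histone mRNA and protein showed 0 calls, which is near the share over all genes. Over all genes tested, limma called 0.0183% higher and 0% lower. At an unadjusted p below 0.05 limma gave 5.01% higher and 1.19% lower. Of 25 tested factors of histone mRNA processing, limma called 0 (0 also at an unadjusted p below 0.05), with 1 higher and 2 lower without overlap (25.4% and 9.75% over all genes) and a median of 0.07. Lsm11, a U7-specific protein, was at 1.25, 0.988, 1.91 and 1.45 FPKM, and Cpsf4, a cleavage factor subunit, at 12.8, 12.8, 10.05 and 10.6 FPKM. Of 28 histone chaperones limma called 0 (0 also unadjusted), with 3 higher and 3 lower and a median of 0.06. Of 40 S phase genes limma called 0 (1 at an unadjusted p below 0.05), with 4 higher and 5 lower (25.4% and 9.75% over all genes) and a median of -0.01. Their summed level over the 42 measured was 510, 422, 498 and 462 FPKM, highest in WT 1. Pcna, the replication clamp, was at 146, 163, 177 and 166 FPKM, and Cdt1, a replication licensing factor, at 9.26, 11.9, 14.9 and 14.3 FPKM, both higher in Tfam cKO without overlap. Rpa2, from the same list, was at 6.23, 5.84, 4.50 and 4.63 FPKM, lower in Tfam cKO without overlap. Top2a, the topoisomerase of dividing cells, was at 25.3, 11.0, 18.6 and 18.3 FPKM, lowest in WT 2.

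Other short RNAs without a poly(A) tail also differed between libraries. Of 32 listed, 10 were measured and 3 tested. Rmrp, the RNA of RNase MRP, was at 2.46, 1.29, 24.7 and 18.8 FPKM and rose in Tfam cKO (limma adjusted p = 0.00916). Rpph1, the RNA of RNase P, was at 4.20, 5.69, 22.9 and 13.8 FPKM (limma adjusted p = 0.149). Rnu12, a spliceosomal RNA, was at 161 FPKM in Tfam cKO 1 and listed at 0 in the other libraries. Whether poly(A) selection was used is not in the labels. The part of such RNAs' recovery in the histone values was not tested.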

How the data were processed

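Libraries were made with the NEBNext Ultra kit from Trizol-extracted RNA of sorted Langerhans cells, per the labels' protocols. Each library has a table of FPKM with a 95% interval, which the authors deposited and which carries the columns of Cufflinks, per the file headers. The submitters' processing notes name CASAVA, Cufflinks and mm10 and no versions. Which aligner and annotation were used is not given in the sources used here. File positions of 0 of the 69 members overlapped the gene of that name in GRCm38, so members were matched by symbol.

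FPKM were summed over the loci of a symbol. Testing covered the 10910 symbols whose mean reached 1 FPKM, as log2(FPKM + 1), which understates the change of low genes, in limma 3.58.1 under R 4.3.3. Genotype was the only term, with a mean trend of the variances and Benjamini-Hochberg adjustment at 0.05 over all genes. A count test had been planned for counts, but the files hold FPKM. The fit was also run on values simulated under its own model, which cannot show whether that model suits these libraries. The effective number of fragments is the squared ratio of FPKM to its standard error, taking the interval as 2 standard errors per side, and covers counting error only.

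Members and lists were chosen with earlier results of these data known. Values are given for the 12 highest members, the 4 of largest change per direction without overlap (0 were lower) and those beside the threshold. Of the context lists, the 3 of highest level, those called and the largest changes without overlap were taken, of which some are printed. Hist1h2ac, Hist1h2ae, Hist2h2aa2, Hist4h4, Tfam, Ddx3y and others outside this rule were chosen after their values were seen. Motifs and 3′ ends were read from GENCODE M21 and RefSeq with Python 3.11.15 and pandas 2.3.3, and figures drawn with matplotlib 3.10.9.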

Additional observations from a re-analysis of the deposited data

How the results depend on the processing

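With 2 libraries a group and mostly fewer than 20 effective fragments, small differences of single members were not detectable. The number of members past the adjusted threshold in limma was 0 with pseudocounts of 0.1 and 5, no filter, a filter at 5 FPKM, quantile normalization, rescaling to equal totals, no mean trend, robust moderation and the highest locus of each symbol. It ranged from 0 to 6 when each library was left out, where a single remaining library was taken to vary as the opposite group did. With a replicate block on the number in the labels it was 8, all higher, against 145 higher and 39 lower over all genes. The labels do not say that a number marks a shared batch. The differences between libraries 1 and 2 of the groups correlated with r = 0.26 across 10910 genes, which are not independent replicates, and Y-linked RNA followed the number. Both are hints from the data and not the design.

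The log2 ratio of the whole histone sum was 0.37 and ranged from 0.18 to 0.55 without each library in turn. That of H1 ranged from 0.17 to 0.53, of H2A from -0.12 to 0.29, of H2B from 0.15 to 0.69, of H3 from 0.054 to 0.98 and of H4 from 0.38 to 0.97. After rescaling to equal totals the H2A ratio reversed to -0.020, the cause of which was not tested, and without Hist3h2a it was 0.39. Hist1h1e reversed to -0.085 without WT 1, in a range of -0.085 to 0.73 without each library. Hist1h2bn, at 0.01, reversed to -0.024 at a pseudocount of 0.1, -0.18 after quantile normalization, -0.095 after rescaling and -0.086 without WT 1. Without Tfam cKO 2 it was 0.34, and without WT 2 or Tfam cKO 1 its mean was below the filter. The cause was not tested. Of 229 alternative fits of the 17 named members, 5 reversed direction. Fits that changed only the filter, the variance model or the block kept the main log2 fold change by construction and could not reverse. The same held for the highest locus in members with a single locus. The number of members higher in Tfam cKO without overlap, 17, was 13 after quantile normalization, 12 after rescaling, 16 with the highest locus, 25 of 68 without a filter, and 7 of 12 with a filter at 5 FPKM (28.5% of all genes). It was 23 of 45 without WT 1 (7 lower, against 55.7% and 20.7% of all genes), 30 of 43 without WT 2 (3 lower, 37.3% and 32.1%), 24 of 38 without Tfam cKO 1 (2 lower, 40.6% and 19.1%) and 23 of 39 without Tfam cKO 2 (4 lower, 41.9% and 22.9%). These counts were chosen after seeing the data.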
